A study of Mus musculus with 1183 samples.

Results

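The transcripts of the interleukin 1 family and of the inflammasome that processes it were followed across the immune cells of the hyperoxia-exposed newborn mouse lung. The 10 genes were the ligands Il1a, Il1b and Il18, the antagonist Il1rn, the receptors Il1r1, Il1r2, Il1rap and Il1rl1, and the processing genes Nlrp3 and Casp1. They were chosen by symbol among the 18072 genes of the count table, and all 10 were present and passed the filter on low counts. The study took 1183 immune cells from distal lung tissue of 2 mice, 598 cells from 1 female and 585 from 1 male, at postnatal day 7, and every cell is labelled as hyperoxia-treated. No strain or genetic modification is given in the sources used here. Room-air animals were not analysed here, so the values describe the exposed lung and not the effect of oxygen. The labels divide the cells into 16 subtypes, named Mac I to Mac V, DC I to DC III, neutrophil, basophil, mast cell, mast cell II, B cell, T cell, NK cell and IL cell. Mac I holds 1 cell and was left out of the comparisons. Each animal is 1 replicate, so levels are given as a value for the female followed by a value for the male, and a difference of sex cannot be told apart from a difference between these animals.

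Interleukin 1 beta and interleukin 18 are made as inactive precursors without a signal peptide. A sensor such as NLRP3 gathers the protease caspase 1, encoded by Casp1, into an inflammasome, and the protease then cuts both precursors into their secreted, active forms. Interleukin 1 alpha is active without that cut. IL1R1 binds both interleukin 1 forms and signals together with the accessory chain IL1RAP. Il1rn encodes the receptor antagonist, which occupies IL1R1 without signalling, and Il1r2 a decoy receptor that binds the ligand and lacks the signalling domain. Il1rl1 encodes ST2, the receptor of interleukin 33, which also uses IL1RAP and is known from mast cells, basophils and type 2 innate lymphoid cells. Messenger RNA was counted here, and neither the cut proteins nor their release were measured.

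The sequences upstream of 3 of the genes are shown: Il1b and Il1a, because these related ligands were highest in different cells, and Il1rl1, because it was highest in mast cells. They are the 250 bases before the RefSeq transcription start, build GRCm38.p6, matched by symbol, and are written 5′ to 3′ on the strand of the gene. Capitals mark matches to any of 4 kinds of motif, searched on both strands: GATA-type (AGATAA or AGATAG or TGATAA or TGATAG), C/EBP-type (TTGNGNAA), AP-1-type (TGANTCA) and the TATA box (TATAAA).
Il1b, chr2:129371140-129371389, minus strand: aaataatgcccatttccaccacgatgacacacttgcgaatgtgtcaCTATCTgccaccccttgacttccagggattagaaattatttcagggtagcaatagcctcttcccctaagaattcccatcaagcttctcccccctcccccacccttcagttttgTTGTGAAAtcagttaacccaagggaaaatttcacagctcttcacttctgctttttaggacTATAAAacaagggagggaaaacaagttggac
Il1a, chr2:129309973-129310222, minus strand: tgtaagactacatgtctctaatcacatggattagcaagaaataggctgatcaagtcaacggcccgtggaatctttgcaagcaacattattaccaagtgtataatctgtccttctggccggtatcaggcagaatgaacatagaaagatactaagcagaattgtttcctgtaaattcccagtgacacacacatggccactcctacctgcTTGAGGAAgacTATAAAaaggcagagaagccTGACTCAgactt
Il1rl1, upstream start, chr1:40429320-40429569, plus strand: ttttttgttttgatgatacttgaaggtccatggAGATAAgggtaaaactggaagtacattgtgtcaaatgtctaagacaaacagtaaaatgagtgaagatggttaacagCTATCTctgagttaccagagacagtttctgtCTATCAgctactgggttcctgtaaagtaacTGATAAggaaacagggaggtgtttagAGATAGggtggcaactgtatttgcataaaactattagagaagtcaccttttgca
Il1rl1, downstream start, chr1:40439379-40439628, plus strand: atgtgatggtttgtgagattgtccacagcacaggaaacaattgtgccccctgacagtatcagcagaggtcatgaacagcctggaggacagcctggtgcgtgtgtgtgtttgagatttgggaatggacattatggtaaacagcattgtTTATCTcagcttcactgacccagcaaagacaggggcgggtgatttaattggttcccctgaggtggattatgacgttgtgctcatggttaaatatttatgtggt

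The windows of Il1b and Il1a each held a TATA box and a C/EBP-type match. Among the 32851 RefSeq windows of the same length, 12.4% held at least 1 TATA box and 11.7% at least 1 C/EBP-type match. The window of Il1a also held an AP-1-type match, found in 6.75% of windows, and that of Il1b 1 GATA-type match. Il1rl1 has 2 RefSeq starts. The window of its upstream start held 5 GATA-type matches, a number reached by 11 of the 32851 windows (0.0335%), and that of its downstream start held 1, where 26.5% of windows held at least 1. Counts per gene cannot tell which start was used, and a match to a short motif is not evidence of binding. The GATA factor gene Gata2 stood at 2942 CPM in basophils of the female and 3049 CPM in those of the male, where CPM are the reads of a gene scaled to summed libraries of one common size. In mast cells Gata2 stood at 2074 and 1878 CPM. In IL cells Gata2 had 0 reads and Gata3 stood at 3943 and 3116 CPM, while in DC II both genes had 0 reads.

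The depth was 16753 to 7560179 reads per cell, with a median of 1086470 in the female against 1108590 in the male, and 10 cells came from gates other than CD45, the surface protein of blood-derived cells. Neutrophils were the shallowest subtype with a median of 616659 reads in the female against 571915 in the male. Shares of cells are therefore given at a common depth of 100000 reads drawn at random from each cell, without the 5 cells that had fewer, and a cell counts as having a gene with at least 1 read. Intervals on shares are exact Clopper-Pearson intervals at 95% and cover counting error only. The defining markers matched the labels in most subtypes: S100a8, S100a9, Csf3r and Retnlg were highest in neutrophils, C1qa, C1qb, C1qc and Pf4 in Mac IV, Cma1, Cpa3, Kit and Tpsb2 in mast cells, and Mcpt8, Cd200r3 and Fcer1a in basophils. Exceptions were the alveolar macrophage marker Chil3 and the dendritic marker Itgam, both highest in neutrophils, the monocyte marker Ccr2, highest in basophils, and Il7r, a marker of innate lymphoid cells, highest in T cells. The surfactant gene Sftpc of alveolar epithelium reached a mean of 5376 CPM in DC I, where Epcam stood at 43.5 CPM.

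The levels of 9 of the 10 genes differed among the 15 subtypes with cells in both animals (edgeR's quasi-likelihood test on counts summed per animal and subtype, Benjamini-Hochberg adjusted over 15600 genes). The background was high, as 34.3% of all genes tested were called in the same test. Adjusted p ran from 6.23e-06 for Nlrp3 and 7.26e-06 for Il1rl1 to 0.0403 for Casp1. Il1r1, the signalling receptor, was not called (adjusted p = 0.0862). The source of the subtype labels is not given in the sources used here, and if they rest on these counts the tests describe the labelled classes and are not independent of them. The plot of levels by subtype shows each gene in its own set of cells: Il1b and Il1r2 in neutrophils, Il1rn and Il1a in Mac III, Il18 in Mac II and Mac III, Il1rl1 in mast cells, Nlrp3 in basophils and neutrophils, and Casp1 over all of Mac II to Mac V.

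**Figure D1:**
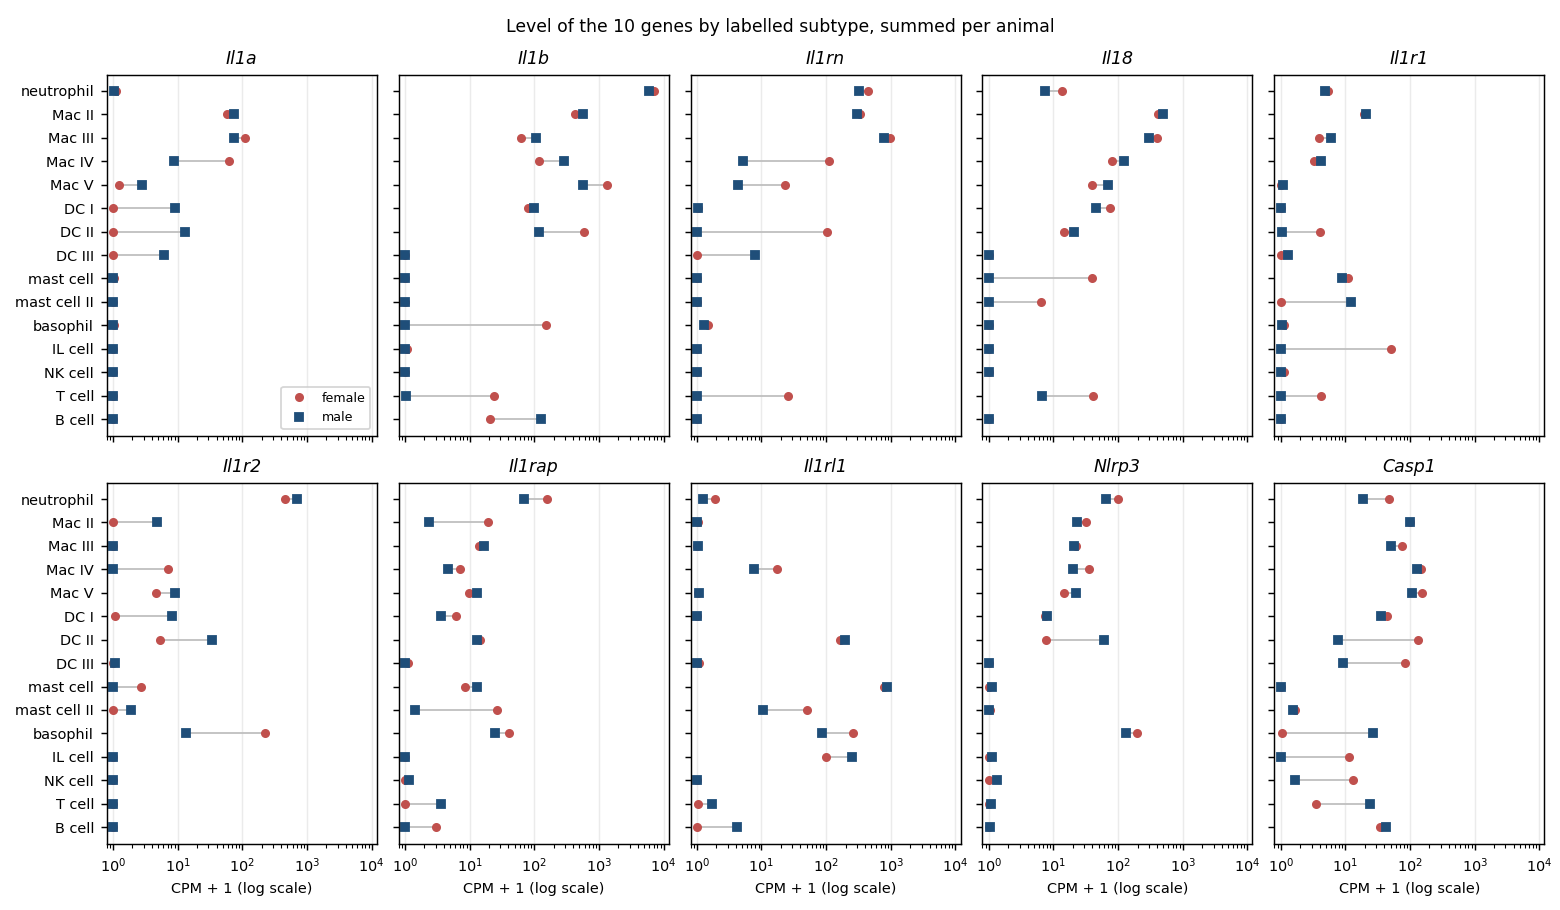
Level of each of the 10 genes (CPM + 1, log axis) in the summed cells of each labelled subtype, with 1 point for the female (circle) and 1 for the male (square) and a grey line joining them. The neutrophil points of Il1b, at 7187 and 5974 CPM, lie to the right of all others in that panel, and no subtype of Il1r1 reaches 20 CPM in both animals.

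Il1b was highest in neutrophils and next in Mac V and Mac II. Neutrophils stood at 7187 and 5974 CPM, above both animals of every other subtype, and neutrophils held 68.5% of its reads in the 15 subtypes. Mac V, whose leading markers Ly6c2, Ace and Plac8 are those of monocytes, followed at 1330.2 and 576 CPM. Mac II stood at 433 and 573 CPM, DC II at 589 and 117.6 CPM and Mac IV at 119.45 and 286.9 CPM. The values of Mac II and DC II overlapped between animals, as did those of DC II and Mac IV. Mac III, the largest subtype, stood at 61.4 and 106.5 CPM, beside DC I at 78.7 and 98.1 CPM, and the 2 subtypes overlapped. DC III, NK cells and mast cell II had 0 reads of Il1b in either animal. Between neutrophils and Mac V the log2 difference was 3.21 ± 1.93 (SE), which did not pass (adjusted p = 0.516), although the animals did not overlap.

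Most neutrophils carried Il1b. A read was found in 83.6% of the cells of the female (46 of 55, interval 71.2% to 92.2%) and in 73.1% of those of the male (57 of 78, 61.8% to 82.5%). The level per cell ran from 0 to 48376 CPM with a median of 7119 in the female, and from 0 to 30446 with a median of 5716 in the male. No single cell decided the summed level, as the highest cell held 8.38% of the reads in the female against 4.81% in the male. The CD45 plates differed: in the female the first plate stood at 4414 CPM and the second at 9728 CPM, against 5771 and 6240 CPM in the male. The cell names carry a code, DC28 on the first of these plates of the female and DC35 on her second and on both of the male. The names do not say what this name code stands for. In Mac V a read was found in 71.2% (47 of 66) and 50% (22 of 44) of cells, and in Mac II in 59.3% (16 of 27) and 75% (15 of 20). In Mac III the share was 19.9% and 22.6%, and the median cell had 0 reads.

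Neutrophils with and without a read of Ngp, a granule protein gene of immature neutrophils, carried different amounts of Il1b. In the female, 42 of 46 cells without Ngp had Il1b (91.3%, summed level 9535 CPM), against 4 of 9 cells with Ngp (44.4%, 1283 CPM). In the male the values were 52 of 58 cells (89.7%, 8793 CPM) and 5 of 20 cells (25%, 714 CPM). Il1rap had 0 of 9 and 0 of 20 cells with a read among those with Ngp, against 39.1% and 27.6% of those without. Il1r2 went the same way in both animals, at 568 against 149.1 CPM for the female and 1019 against 96.8 CPM for the male. The summed level of Il1rn was also higher without Ngp, at 491 against 315.7 CPM for the female and 413 against 137.3 CPM for the male. Its share of cells with a read was 50% without Ngp and 44.4% with it in the female, and 62.1% and 70% in the male. The split was chosen after the values of the genes were seen, and no test was made of it.

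Neutrophil markers were looked for beside Il1b in B cells, T cells, basophils, Mac II to Mac V, DC I and DC II. Among B cells, 3 cells of each animal had a read, and the 4 neutrophil markers together reached 1397 CPM in 1 of those of the female and 45658 CPM in 1 of those of the male. In B cells without Il1b the summed markers reached at most 6.25 CPM. Of the 2 T cells of the female with Il1b, 1 reached 393 CPM, against at most 0.818 CPM in her T cells without it. In basophils the summed level was 152.4 CPM in the female, from 3 of 34 cells, and 0 reads in the male, and all 4 markers were at 0 in those 3 cells. In Mac V the markers reached 7357 CPM in a cell with Il1b in the female against 37464 CPM in the male. Their median in Mac V was 300.3 CPM in cells with Il1b and 177.8 CPM in cells without in the female, and 402 and 806 CPM in the male. Of these markers, Csf3r had its second highest mean in Mac V, at 251.2 CPM. In Mac IV the median was 130.6 CPM in the 10 cells with Il1b and 0 in cells without in the female, and 2.34 and 0 CPM in the male. Among those 10 cells S100a8 was at 0 in 8 and Csf3r in 1. In Mac II of both animals and Mac III of the female the median was lower in cells with Il1b, and in Mac III of the male it was higher. In DC I and DC II the medians of cells with Il1b were at most 0.174 CPM. The part of neutrophil RNA or of doublets in these values was not tested.

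Il1a did not follow Il1b, although both encode ligands of the same receptor. Mac III was highest at 110.4 and 73.4 CPM, followed by Mac II at 57.7 and 72.5 CPM, and the animals of these subtypes did not overlap. Mac IV stood at 60.9 and 7.69 CPM. Neutrophils had 5 reads in the female against 2 in the male, 0.119 and 0.0381 CPM. A read was found in 60.2% and 59.1% of Mac III cells, in 48.1% and 45% of Mac II cells, and in 0 of 55 and 0 of 78 neutrophils. By the limit of 3 cells that a count of 0 allows, up to 5.45% and 3.85% of neutrophils could carry a read at this depth. Without thinning, 5.36% and 2.56% of neutrophils had a read. Per kilobase of exon, Il1a stood at 1.74 times the level of Il1b in Mac III of the female and at 0.665 of it in the male. In Mac II the same ratio was 0.128 and 0.122. The difference between Mac III and Mac V was 6.46 ± 3.14 on the log2 scale and was not called (adjusted p = 0.548).

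Il18 was highest in Mac II and Mac III. Mac II stood at 411 and 501 CPM and Mac III at 395 and 300.03 CPM. Mac IV followed at 78.7 and 124.8 CPM, DC I at 73.7 and 45.2 CPM and Mac V at 38.7 and 68.4 CPM. Mac II was above Mac III in both animals and Mac III above Mac IV, while DC I and Mac V overlapped. Neutrophils, the main Il1b cells, stood at 12.4 and 6.36 CPM, of which the highest cell held 69.3% and 82.6%. Nearly every Mac III cell carried the gene, with a read in 92.3% (interval 87.4% to 95.7%) of the female and 90.9% (86.1% to 94.4%) of the male. In Mac IV the share was 49.2% and 54.4%, in Mac V 15.2% and 13.6%, and in neutrophils 3.64% and 2.56%. B cells, DC III, IL cells, NK cells and basophils had 0 reads.

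The antagonist Il1rn was highest in Mac III, at 958 and 771 CPM, above both animals of every other subtype. Neutrophils stood at 441 and 316.7 CPM and Mac II at 330.96 and 294.03 CPM, and these subtypes overlapped. Mac IV was uneven, with 10598 reads (110.998 CPM) in the female against 495 reads (4.19955 CPM) in the male, and Mac V stood at 22.2 and 3.26 CPM. DC II had 1347 reads in the female, all in 1 cell, and 0 in the male. Reads of Il1rn were found in 93.9% (interval 89.4% to 96.9%) and 93.8% (89.5% to 96.6%) of Mac III cells. In neutrophils the share was 49.1% (27 of 55) and 64.1% (50 of 78), in Mac II 81.5% and 70%, in Mac IV 12.7% and 5.06% and in Mac V 12.1% and 6.82%. Against Mac IV the log2 difference of Mac III was 3.99 ± 2.47 (adjusted p = 0.803) and against Mac V 6.02 ± 2.72 (adjusted p = 0.509), so neither was called.

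**Figure D2:**
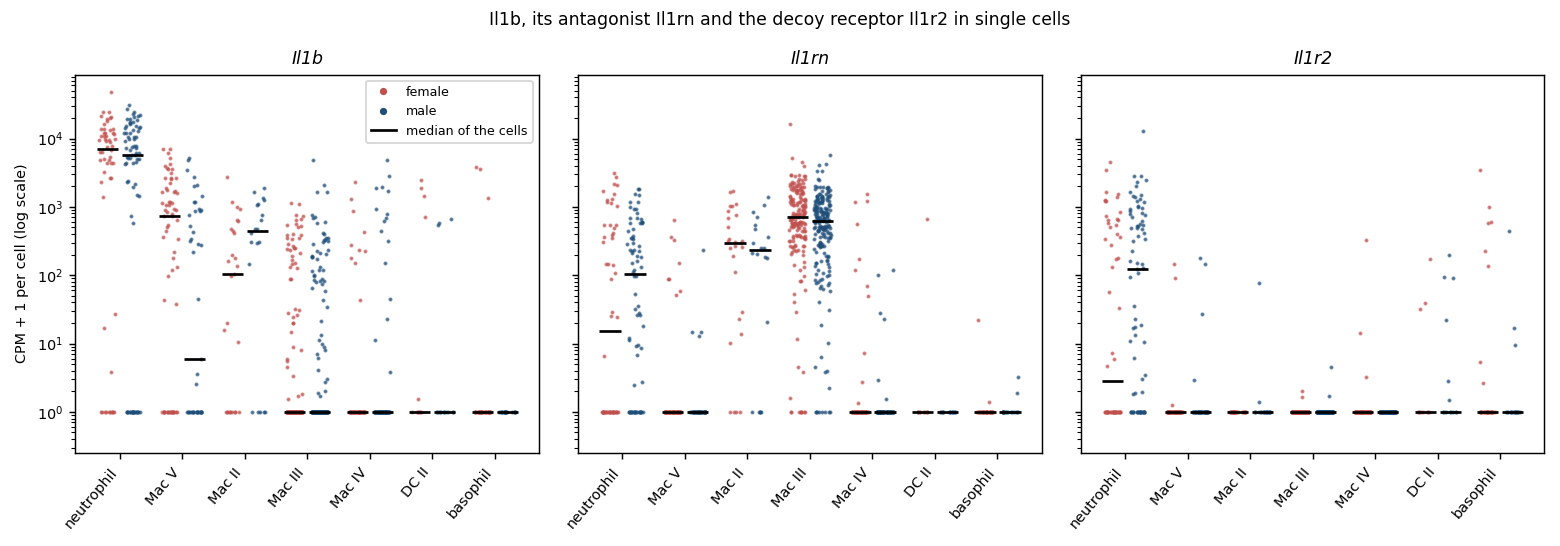
Il1b, Il1rn and Il1r2 in single cells of 7 subtypes (CPM + 1 per cell, log axis), 1 point per cell, female left and male right of each tick, with a black line at the median of the cells. Neutrophils have the highest Il1b medians, 7119 and 5716 CPM, and Mac III the highest Il1rn medians, 716 and 624 CPM.

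The balance of ligand and antagonist differed between the subtypes that made both. Levels of different genes were compared per kilobase of exon, the union of all annotated exons, so the ratios depend on which isoforms are present. In Mac III, Il1b stood at 0.186 of the level of Il1rn in the female against 0.401 in the male. In neutrophils the same ratio was 47.3 and 54.8, in Mac II 3.802 and 5.66, in Mac IV 3.12 and 198.3, and in Mac V 173.96 and 513. The Il1rn of Mac V rests on few cells, as 1 cell held 55.6% of its 1857 reads in the female, and 1 cell 88.7% of those in the male. In Mac IV 1 cell held 42.8% and 46.1%. Mac III thus had more antagonist than Il1b transcript per kilobase in both animals, and neutrophils, Mac II, Mac IV and Mac V had less. In Mac IV of the female this rests largely on the lengths used, 1907 bases for Il1b and 5535 for Il1rn. Without them the levels were 119.45 CPM for Il1b and 110.998 CPM for Il1rn.

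Cells with Il1b were then asked for a second gene. In Mac III, 94.4% of the cells with Il1b in the female (34 of 36) and 97.9% in the male (46 of 47) also had Il1rn. In neutrophils the share was 23 of 46 (50%) and 37 of 57 (64.9%), and in Mac V 7 of 47 (14.9%) and 2 of 22 (9.09%). Over all cells, with or without Il1b, the share with Il1rn was 93.9% and 93.8% in Mac III, 49.1% and 64.1% in neutrophils and 12.1% and 6.82% in Mac V. Casp1 was found in 27 of 47 (57.4%) and 11 of 22 (50%) of the Mac V cells with Il1b, but in 6 of 46 (13.04%) and 3 of 57 (5.26%) of the neutrophils with Il1b. Nlrp3 was found in 15 of 46 (32.6%) and 20 of 57 (35.1%) of the neutrophils with Il1b. Over all cells, with or without Il1b, the share with Casp1 was 56.1% and 43.2% in Mac V and 12.7% and 7.69% in neutrophils. The share with Nlrp3 over all neutrophils was 32.7% and 26.9%. Read the other way, 15 of 18 (83.3%) and 20 of 21 (95.2%) neutrophils with Nlrp3 had Il1b, as did 22 of 27 (81.5%) and 42 of 51 (82.4%) neutrophils with the decoy receptor Il1r2. The share with Il1b over all neutrophils was 83.6% and 73.1%, so in the female neither share lay above it. A cell without a read of a gene at 100000 reads may still express it, and cells of 1 animal are not replicates, so no test was made.

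**Figure D3:**
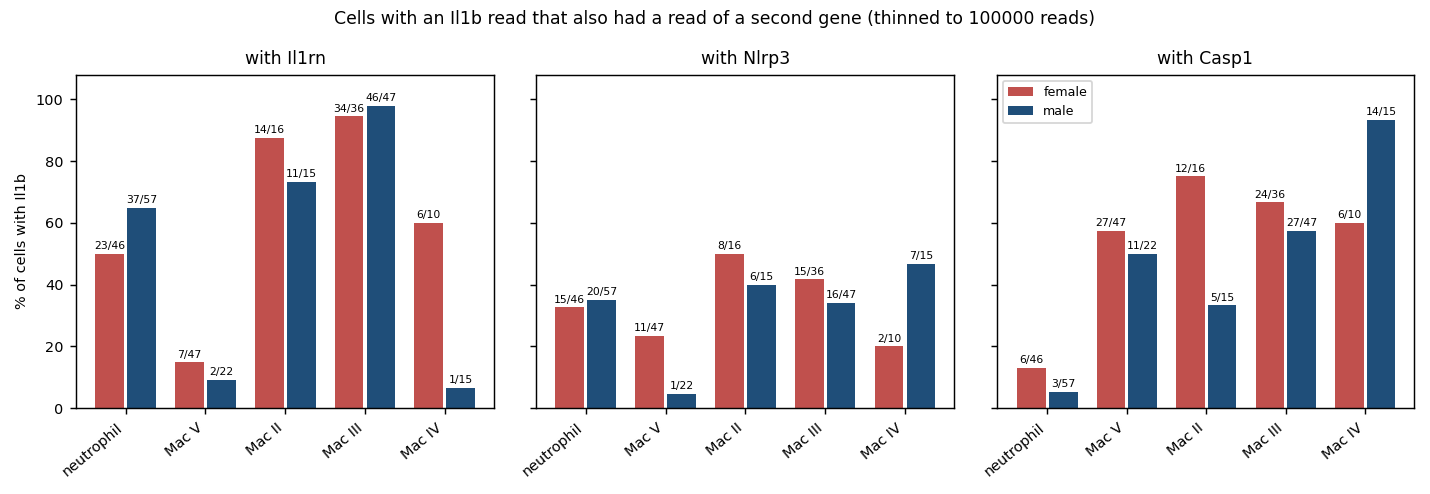
Share of cells with an Il1b read that also had a read of Il1rn, Nlrp3 or Casp1 in 5 subtypes, after thinning to 100000 reads; the bars start at 0, female red and male blue, with the numbers of cells above them. For Il1rn the Mac III bars reach 94.4% and 97.9%, and for Casp1 the neutrophil bars are the lowest at 13.04% and 5.26%.

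Among the receptors, the signalling chain Il1r1 was low in every subtype. Its highest mean was in IL cells, at 50.6 CPM in the female against 0 reads in the male, and 1 cell held 89.9% of those reads. Mac II stood at 18.6 and 20.1 CPM, of which 1 cell per animal held 99.02% and 73.9%. Mast cells stood at 10.1 and 7.91 CPM, with 99.7% and 98.6% in 1 cell. Over all subtypes 5988 reads were found in 85 of the 1183 cells before thinning, and no subtype reached 20 CPM in both animals. In Mac III a read was found in 2.21% (4 cells, interval 0.605% to 5.56%) and 5.77% (12 cells, 3.02% to 9.86%) of cells. The levels of IL cells and Mac II overlapped, and an order of subtypes for this gene rests on single cells.

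The decoy receptor Il1r2 was highest in the same cells as Il1b. Neutrophils stood at 449 and 697 CPM, and held 80.2% of its reads. A read was found in 49.1% (27 of 55, interval 35.4% to 62.9%) and 65.4% (51 of 78, 53.8% to 75.8%) of neutrophils. The highest cell held 27.96% of the reads in the female against 46.9% in the male, and without it in each animal the mean level of 573 CPM fell to 356.3 CPM. Basophils came next at 224.1 and 12.4 CPM, with 52.8% and 88.9% of the reads in 1 cell, and DC II at 4.40 and 32.4 CPM. Mac III had 2 and 4 reads, 0.00956 and 0.0170 CPM. Between neutrophils and Mac V the log2 difference was 6.99 ± 3.12 and was not called (adjusted p = 0.361). None of the 10 genes was called in that comparison, where 0.404% of all genes were. At an unadjusted p under 0.05 there were 2, Il1r2 and Il1rl1, the latter below 1 CPM in all 4 libraries. Over all 15600 genes tested the number was 2026. Other tools called up to 2 of the 10, Nlrp3 with DESeq2 and Il1r2 and Nlrp3 with limma voom.

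The shared chain Il1rap was also highest in neutrophils, at 155.2 and 69.6 CPM, and next in basophils at 39.97 and 23.4 CPM. Reads were found in 32.7% and 20.5% of neutrophils, in 25.97% and 23.6% of Mac III cells and in 23.5% and 10.5% of basophils. The highest neutrophil held 45.4% of the reads in the female against 27.4% in the male. Without those cells the mean neutrophil level of 112.4 CPM was 69.5 CPM. Without the neutrophils of the female the test among subtypes no longer called the gene. Nor did it among the cells with the name code that both animals share (adjusted p = 0.0771).

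Il1rl1, which encodes the interleukin 33 receptor ST2, marked mast cells, basophils, DC II and IL cells. Mast cells stood at 779 and 866 CPM, above every other subtype. DC II stood at 160.4 and 196.9 CPM, IL cells at 98.8 and 253.6 CPM and basophils at 263.99 and 86.6 CPM, and these 3 subtypes overlapped. Mast cell II stood at 50.3 and 9.41 CPM and Mac IV at 16.2 and 6.75 CPM. Every mast cell of the female had a read (39 of 39, interval 90.97% to 100%) and 19 of 20 of the male (95%, 75.1% to 99.9%). The level per mast cell ran from 55.4 to 2739 CPM with a median of 662 in the female, and from 0.519 to 2260.1 with a median of 777 in the male. In basophils the share was 85.3% (29 of 34) and 52.6% (10 of 19), in IL cells 6 of 9 and 5 of 5, and in DC II 6 of 11 and 10 of 14. The accessory chain Il1rap was found in 1 of 39 and 3 of 19 mast cells with Il1rl1, in 8 of 29 and 2 of 10 basophils and in 0 of 6 and 0 of 5 IL cells. The ligand Il33 reached 11.4 CPM in DC I of the male and 0 in that of the female, its highest mean among these immune cells.

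The dendritic cells were separated by Il1rl1, Il1b and Nlrp3. DC I, whose markers are those of conventional dendritic cells type 1, had 0 reads of Il1rl1 in 40 cells, and DC II, of type 2, was at least 3610-fold higher against the limit of 3 reads over both animals (adjusted p = 0.0199). That limit was 2046 and 1565 without the DC I library of the female and of the male. Il1rl1 was the 1 gene of the 10 called between DC II and DC I, with 0.244% of all genes called and 0.218% called as higher in DC II. DC III, the subtype with the markers of mature dendritic cells such as Ccr7 and Fscn1, was lower than DC II in 3 of the 10 genes. In that comparison 4.58% of all genes were called, and 3.71% were called as lower in DC III. Il1b had 0 reads in DC III, at least 2722-fold lower (adjusted p = 0.0185), and this limit was 1007 without the DC II library of the female, 1658 and 1063 without the DC III library of the female and of the male, and 5040.5 without the DC II library of the male. Nlrp3 had 0 reads, at least 315.99-fold lower (adjusted p = 0.00322). It stood at 6.75 and 59.2 CPM in DC II, and without the library of the male the limit was 57.8, without that of the female 507. Without the DC III library of the female or the male it was 192.5 and 123.4. The fold limits of this paragraph count reads and do not cover the sampling of cells. In DC II a read of Il1b was found in 4 of 11 and 3 of 14 cells, and 1 cell held 40.3% and 47.2% of its reads. For Nlrp3 the shares in DC II were 2 of 11 and 5 of 14 cells. Both genes were found in 0 of 11 DC III cells of each animal, where the interval reaches 28.5%. Il1rl1 had 1 read in DC III (adjusted p = 0.00807). The median log2 difference of the 10 genes was -8.13, against -0.13 over all genes tested. The size of that median rests on genes at the floor. Il1b, Il18 and Nlrp3 had 0 reads in DC III, and Il1r2, Il1rap and Il1rl1 had 1 read each. In the other pairs of subtypes the median of the 10 ran from -4.57 (mast cells against basophils) to 3.56 (neutrophils against Mac V). Between DC III and DC II, Il1rn, Il1r1 and Casp1 had opposite signs in the 2 animals. Casp1 stood at 83.8 and 8.30 CPM in DC III and at 133.1 and 6.67 CPM in DC II, and the animals overlapped. Leaving out either DC III library left 1 of the 3 calls, Nlrp3. The call of Il1b was also lost without the DC II library of the female (adjusted p = 0.0511) and with limma voom (adjusted p = 0.915). Leaving out either DC I library removed the call of Il1rl1 between DC II and DC I.

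IL cells and T cells differed in Il1rl1. IL cells, with Gata3, Rora and Areg highest among all subtypes, stood at 98.8 and 253.6 CPM, and T cells at 0.0270 and 0.708 CPM. The log2 difference was 8.81 ± 2.04 (adjusted p = 0.0395), the 1 call among the 10 genes where 1.13% of all genes were called and 0.192% were called as higher in IL cells. With the animal as a block it was not called (adjusted p = 0.0538), and leaving out any of the 4 libraries also ended the call, while the direction stayed. Only 9 and 5 IL cells stood behind it.

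Of the processing genes, the sensor Nlrp3 was highest in basophils, at 194.6 and 129.5 CPM, and second in neutrophils at 97.3 and 64.1 CPM. Both animals of basophils lay above both of neutrophils, which lay above all other subtypes. DC II stood at 6.75 and 59.2 CPM, and Mac II, Mac III, Mac IV and Mac V ran from 13.8 to 35.1 CPM over both animals. A read was found in 76.5% (26 of 34, interval 58.8% to 89.3%) and 47.4% (9 of 19, 24.4% to 71.1%) of basophils, and in 32.7% (18 of 55) and 26.9% (21 of 78) of neutrophils. Mac II (51.9% and 45%) and Mac III (38.1% and 30.3%) had more cells with a read than neutrophils, at lower summed levels. Mast cells, which share Gata2 and Il1rl1 with basophils, had 1 and 3 reads of Nlrp3 in all. The log2 difference of mast cells from basophils was -11.59 ± 1.96 (adjusted p = 0.0031), and without the mast cells of the female the call was lost (adjusted p = 0.0664).

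That comparison of mast cells with basophils called 2 of the 10 genes, where 1.71% of all genes were called and 0.724% were called as higher in basophils. The second was Il1b, with a log2 difference of -12.66 ± 3.07 (adjusted p = 0.0444). It rests on the 3 basophils of the female described above. The basophils of the male had 0 reads, and without the library of the female the difference was 2.504 (adjusted p = 0.938). With the animal as a block Il1b was not called (adjusted p = 0.0601), nor with limma voom (adjusted p = 0.973). Its call was also lost without either mast cell library. Il1rl1 was higher in mast cells in both animals, by 2.06 ± 1.49, and was not called (adjusted p = 0.563). Casp1 had 1 read in all mast cells. In basophils it had 3 reads in the female against 506 in the male, all of the latter in 1 cell.

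Casp1 was the only one of the 10 genes with a read in each of the 15 subtypes, and its highest levels were spread over Mac II to Mac V. Mac IV stood at 148.65 and 129.4 CPM, Mac V at 152.4 and 106.7 CPM, Mac II at 97.6 and 99.5 CPM and Mac III at 75.2 and 49.4 CPM. Mac IV and Mac V overlapped. DC II (133.1 and 6.67 CPM) and DC III (83.8 and 8.30 CPM) differed between animals, and B cells stood at 32.99 and 41.1 CPM. Neutrophils, first for Il1b, stood at 46.99 and 18.04 CPM for Casp1, with 41.2% and 61.9% of the reads in 1 cell. A read was found in 60.3% and 53.2% of Mac IV cells, in 56.1% and 43.2% of Mac V cells, in 63.5% and 57.2% of Mac III cells and in 12.7% (7 of 55, interval 5.27% to 24.5%) and 7.69% (6 of 78, 2.88% to 15.99%) of neutrophils. The call among subtypes (adjusted p = 0.0403) was lost with the animal as a block (adjusted p = 0.0516). It was also lost among the cells with the shared name code (adjusted p = 0.0965) and with subtypes of at least 10 cells in each animal only (adjusted p = 0.0629). The same held without either library of Mac III, Mac IV, Mac V, mast cells or DC I.

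**Figure D4:**
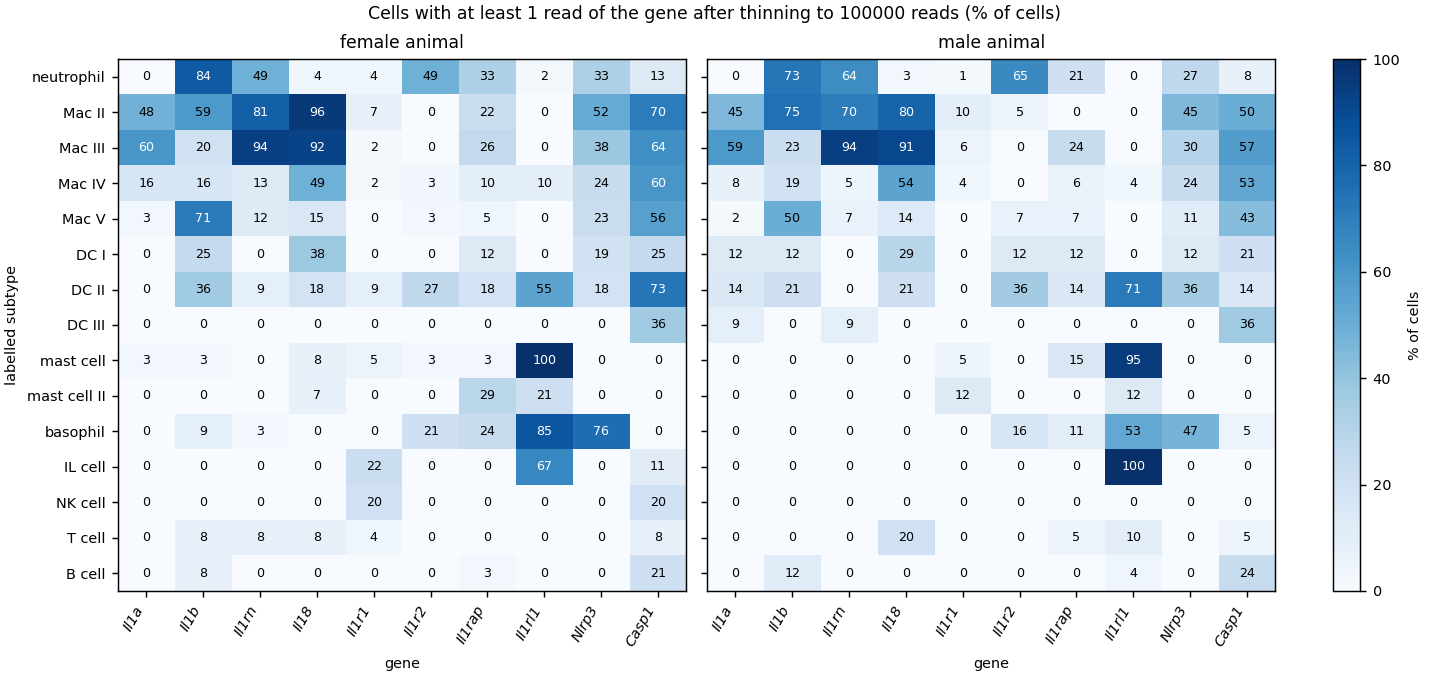
Share of cells (%, number in each square, darker blue for more) with at least 1 read of each gene after thinning to 100000 reads, subtypes in lines and genes in columns, female left and male right. Il18 and Il1rn fill the Mac III line above 90% in both animals, Il1rl1 fills the mast cell line at 100% and 95%, and the Il1r1 column stays at or below 22.2%.

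Mac III was compared with Mac IV and with Mac V, and other pairs of macrophage subtypes were not tested. Mac III against Mac IV had 0 of 10 genes called, with 0.263% of all genes called, and Mac III against Mac V 0 of 10, with 0.442%. At an unadjusted p under 0.05 there were 2 in each, Il1r2 and Il1rl1 in the first and Il1rn and Il1r2 in the second. Over all 15600 genes tested the numbers were 1231 and 1467. DESeq2 called 1 (Il1rl1) and 0, and limma voom 3 and 5. The largest difference between Mac III and Mac IV was in Il1rl1, lower in Mac III by 8.79 ± 2.03 on the log2 scale (adjusted p = 0.095). Mac III had 3 and 7 reads of it, and Mac IV 16.2 and 6.75 CPM.

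Other genes of the pathway were taken from a list of 54 symbols, of which 43 were in the table and 42 passed the filter. In the test among subtypes 22 of 42 were called, beside 34.3% of all genes. In the pairs of subtypes few were called. Il1f9, which encodes an interleukin 36 ligand, was higher in neutrophils than in Mac V, at 288.3 and 285.6 CPM against 1 read (adjusted p = 0.034). Il18rap, a chain of the interleukin 18 receptor, was higher in basophils (749 and 402 CPM) than in mast cells (0.210 and 0.472 CPM; adjusted p = 0.0172). Basophils also had the highest mean of the other chain, Il18r1, at 278.4 and 537 CPM. Irak3, an inhibitor of signalling below these receptors, was higher in DC II (74.4 and 18.05 CPM) than in DC I, which had 1 read (adjusted p = 0.0482). Irak3 was also higher in IL cells (30.1 and 19.4 CPM) than in T cells, which had 0 reads (adjusted p = 0.0174). The lower limit on that fold, which counts reads and does not cover the sampling of cells, was 534. It was 209.9 and 323.7 without the T cells of the female and of the male. Naip2, Naip6, P2rx7 and Card19 were lower in DC III than in DC II, 4 of the 42 where 3.71% of all genes were called as lower. In DC II, Naip6 stood at 119.9 and 13.8 CPM. Naip2 and Naip6 encode sensors of bacterial proteins and P2rx7 an ATP-gated channel upstream of NLRP3. No gene of the list was called between Mac III and Mac IV or between Mac III and Mac V. An unadjusted p under 0.05 was reached there by 7 and 6 of the 42, beside 1231 and 1467 of all 15600 genes.

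The patterns of the 10 genes were set beside those of 9374 others over the 30 summed libraries by Pearson's r of log2(CPM + 1), as a description, since the libraries of a subtype and of an animal share their source. Il1b was most like Cd14 (r = 0.89), a co-receptor for bacterial lipopolysaccharide, and then Igsf6 and Aldh3b1, though Cd14 itself was highest in Mac IV. Il1r2 was most like Mmp9 (0.86), Abca13 and Cxcr2, all highest in neutrophils. Il18 was most like Man1c1 (0.91), Lrp1 and Rin2, and Il1a most like Ptgfrn (0.88), Fblim1 and AU022793. Il1rn was most like Mcam (0.87), Slc7a11 and Clec4n. Nlrp3 was most like the chemokine receptor gene Ccr1 (0.89), Cebpd and Ccl6. Il1rl1 was most like Tuba8 (0.81) and the type 2 cytokine genes Il4 (0.80) and Il13 (0.80). Il1rap was most like Plk3 (0.82), Emilin2 and Pik3cg, and Casp1 most like Slc7a7 (0.81), Rbm47 and Bcl2a1b. Among the 10 genes themselves the highest r was 0.75, between Il1rap and Nlrp3, and the lowest was -0.54, between Il1rl1 and Casp1, while Il1a and Il1b stood at 0.35.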

How the data were processed

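The data are plate-based single-cell RNA-seq counts (libraries made with the Tn5 transposase) of 1183 sorted immune cells from 2 mice. The authors deposited raw counts of reads per gene and cell. Per the submitters' processing notes, STAR 2.5.2b, HTSeq 0.10 and the build GRCh38 were used; GRCh38 is a human build, so how it applies to these mouse counts is not given in the sources used here, and the counts carry no coordinates. No molecular identifiers are named, so intervals and limits cover counting error only. No doublet caller was run, and every cell differed from every other in its counts.

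Counts were summed per animal and labelled subtype, giving 30 libraries of 6024429 to 235566546 reads in 15 subtypes with at least 5 cells per animal. They were tested with edgeR 4.0.16 (R 4.3.3; TMM scaling, its filter on low counts, quasi-likelihood test, Benjamini-Hochberg adjustment over 15600 genes, threshold 0.05). The common biological coefficient of variation was 1.152. With 2 animals, p-values measure the spread between those animals. Alternatives included DESeq2 1.42.0 and limma 3.58.1. A level is CPM of the summed library, without TMM. Lengths are union exon lengths of the GENCODE vM21 annotation. A lower limit on a fold against 0 reads uses 3 reads over both animals. It treats reads as separate counts and does not cover the sampling of cells, as 1 cell can hold many reads of a gene.

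The animals pair the libraries, because the libraries of each animal come from that animal. The correlation of their deviations ran from 0.0347 to 0.131 over the 7 pairs of subtypes. The fit without the block is reported, and the blocked value is given where it changed a call.

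All 10 members were named. Pathway genes were named where they were called and 5 or fewer, and the 3 genes most like each member were named among 9374 genes with at least 50 CPM in 1 library and a read in at least 20 cells. Il1r1 was left out of this because no subtype reached 20 CPM in both animals. The members and lists were chosen with earlier results of these data known. The edgeR step was also run on simulated counts with a lower dispersion than these data, so that run does not give its error rate here.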

Additional observations from a re-analysis of the deposited data

Results flagged for a closer look

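In 10 of the differences between 2 subtypes a gene had opposite signs in the female and the male. In 3 of them the inflammasome sensor Nlrp3 changed sign. It stood 7.85 CPM above Mac V in Mac III of the female, and the same difference was -1.18 CPM in the male. For Nlrp3 the values of Mac III minus Mac IV were -13.53 and 0.388 CPM, and for IL cells minus T cells they were -0.0270 and 0.0377 CPM, which is a few reads. The protease gene Casp1 was higher in DC II than in DC I by 90.6 CPM in the female, and the difference was -28.4 CPM in the male. For Casp1 the values of DC III minus DC II were -49.3 and 1.63 CPM, and those of IL cells minus T cells 7.67 and -22.9 CPM. The antagonist gene Il1rn had 102.08 and -0.0296 CPM for DC II minus DC I, and -102.12 and 6.96 CPM for DC III minus DC II, with all of its DC II reads in 1 cell of the female. The last were the receptor genes: Il1r1 had -3.11 and 0.263 CPM for DC III minus DC II, and Il1r2 had -6.08 and 0.0170 CPM for Mac III minus Mac IV. With 1 animal of each sex, the difference between the animals was not tested.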

How the results depend on the processing

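Of the 10 genes, 9 differed among subtypes, and 7 to 10 did under the alternatives, 8 to 10 with 1 library left out. With limma voom the adjusted p of Il1b was 0.683 and that of Il1rn 0.927, and Il1r1 was called; the cause was not tested. In the pairs of subtypes, DESeq2 called 1 of the 10 genes for neutrophils and Mac V, 1 for Mac III and Mac IV, 5 for mast cells and basophils, 3 for DC II and DC I, 5 for DC III and DC II and 4 for IL and T cells. limma voom called 2 for neutrophils and Mac V, 3 for Mac III and Mac IV and 5 for Mac III and Mac V. With only the subtypes compared in the fit the numbers were 1 for neutrophils and Mac V, 2 for Mac III and Mac IV, 5 for Mac III and Mac V, 1 for mast cells and basophils and 0 for IL and T cells, and Nlrp3 was no longer called between DC III and DC II (adjusted p = 0.181). With subtypes of at least 10 cells only, mast cells and basophils gave 4. Among the cells with the shared name code DC35, DC II and DC I gave 0 (Il1rl1, adjusted p = 0.0572), as did IL and T cells. Pairing the libraries by animal (replicate block) gave 8 among subtypes, 1 for mast cells and basophils and 0 for IL and T cells, and changed no other call of the 10 genes. With each library left out in turn the number ran from 0 to 2 for mast cells and basophils, 0 to 1 for DC II and DC I and 1 to 3 for DC III and DC II, and was 0 to 0 for IL and T cells. Il1b in mast cells against basophils ran from -15.07 to 2.504 over the libraries left out, and turned to 2.504 without basophil replicate 1, the female.

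The share of all genes tested that was called among subtypes was 34.3%, and ran from 28.03% to 57.9% over the alternatives. In the pairs it was 0.404% for neutrophils and Mac V (0.0793% to 8.87%), 0.263% for Mac III and Mac IV (0.0595% to 14.9%), 0.442% for Mac III and Mac V (0.178% to 16.5%), 1.71% for mast cells and basophils (0.641% to 15.6%), 0.244% for DC II and DC I (0.112% to 7.15%), 4.58% for DC III and DC II (2.39% to 21.9%) and 1.13% for IL and T cells (0.132% to 14.1%). The highest shares came from DESeq2 or limma voom. Of the levels and shares in the highest subtype, 65 of 80 levels and 30 of 40 shares stayed within the spread of the animals. The level of Il1r1 in IL cells, 25.3 CPM, was 3.46 CPM without the highest cell and 0 without the second plate of the female.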
